A study of Glycine max with 16 samples.

Results

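The genes described here are those whose RNA was lower in dried leaves of the null soybean line than in dried leaves of 3 transgenic lines. A gene was a member if it had at least 1 RPKM in 2 or more of the 8 value columns and met a gap. Its log2(RPKM + 1) in dehydrated null leaves had to lie 1 or more below the lowest of the 3 dehydrated transgenic lines. A difference of 1 is 2-fold in RPKM + 1, and more than 2-fold in RPKM. Counts of genes 2-fold or 8-fold higher or lower when dehydrated use the same scale, so they miss larger RPKM ratios of genes with low values. The deposited values covered 56044 genes, of which 34400 passed the filter, and 133 of these were members, or 0.387% of the genes tested. The members were thus chosen by their values in dehydrated leaves. RPKM scales a gene's reads by its length in kilobases and by the number of reads mapped.

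The series holds leaf RNA of Glycine max seedlings 2 weeks old, germinated on soil in a greenhouse. The transgenic lines A004A, A005B and B010C over-express the transcription factor gene GmWRKY54, and the null line (B001A) serves as the control. Trifoliate leaves were taken from each line after 6 h of drying in air (dehydrated) or from watered plants (watered), with 2 samples listed per line and treatment. The deposited table has 1 value per line and treatment, so no spread between samples of a group can be given, and each transgenic line stands as 1 value. The sources used here do not give the promoter of the transgene, nor whether a line is 1 insertion event. No watered group was held for the same 6 h, so drying and elapsed time cannot be told apart. Throughout, a difference between transgenic and null leaves is a comparison of 3 lines with 1 line.

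WRKY proteins are a plant family of transcription factors that bind W-box elements in DNA and take part in responses to pathogens, drought and senescence. Leaves that lose water accumulate abscisic acid, and this hormone, together with pathways that do not need it, switches on genes for protective proteins, compatible solutes and stomatal closure while growth and photosynthesis genes are turned down. The table names genes by identifier only, and 0 of the identifiers were found in the gene table at hand. The members therefore carry no gene names or roles here, the level of GmWRKY54 was not read, leaf markers were not checked, and lists by gene function could not be formed.

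Over the 8 columns, 28847 to 31333 genes reached 1 RPKM, RPKM summed to between 636011 and 818267, and 19.96% to 23.1% of genes were listed at 0. Read depth is unknown. Over all tested genes, the transgenic mean minus null had a median log2 difference of -0.16 in dehydrated leaves. Median-of-ratios scaling, which centres the columns, moved this to 0.01 and the number of members to 223. In 39 genes A004A and A005B stood at least 2-fold above null and B010C when dehydrated, whereas A004A and null stood at least 2-fold above A005B and B010C when watered, and 0 of these were members. Whether the labels of the null and A005B columns are exchanged, among the watered or among the dehydrated columns, was not tested. With the dehydrated null and A005B columns exchanged, the members would be genes lower in dehydrated A005B alone. The choice of members, every comparison with null, and every change on drying in null or A005B therefore rest on these labels. Some counts were redone with the watered null and A005B columns exchanged, and those that moved by over 1.5 times are given that way as well. The watered counts by group were not redone, nor were those of null below or above all watered transgenic lines by any margin.

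Most members were expressed in dried leaves of every line, but at a lower level in null. The median member stood at 10.98 RPKM in dehydrated A004A, 8.83 RPKM in A005B and 11.5 RPKM in B010C, against 2.47 RPKM in null. Summed over members, the level was 3870 RPKM in A004A, 3219 RPKM in A005B and 4088 RPKM in B010C, against 1171 RPKM in null. In watered leaves the median member was under 0.4 RPKM in every line. It stood at 0.362 RPKM in A004A, 0.344 RPKM in A005B and 0.301 RPKM in B010C, against 0.224 RPKM in null. The dehydrated values chose the members and are given as a description.

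**Figure D1:**
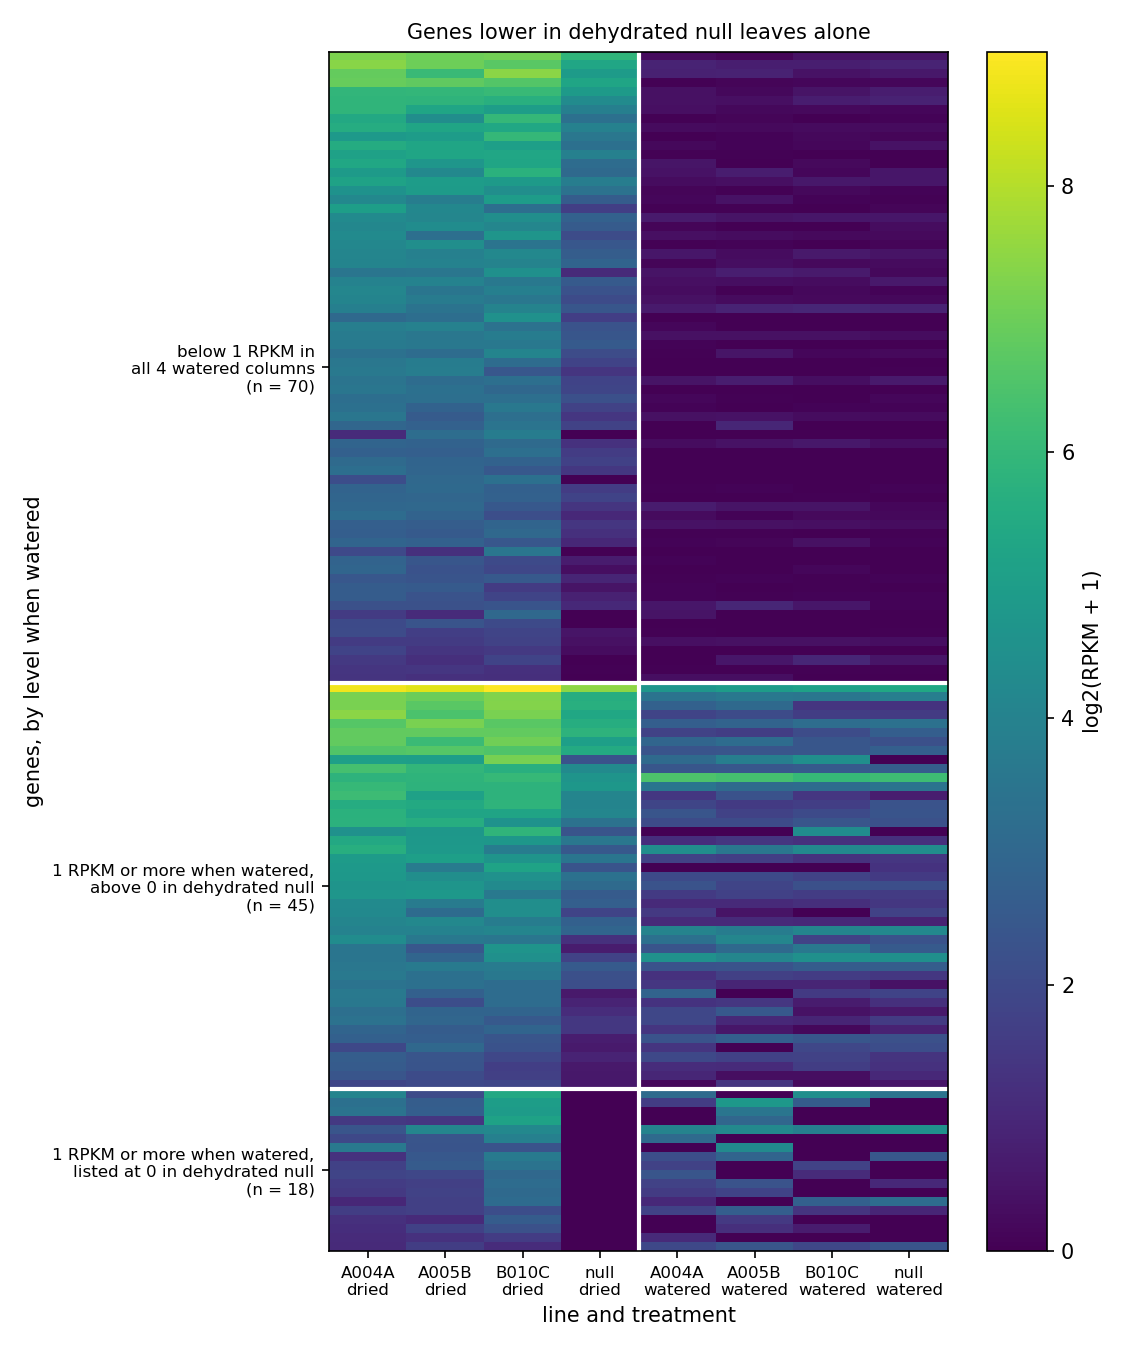
Level of the 133 members as log2(RPKM + 1), with 1 row per gene and 1 column per line and treatment, dehydrated columns on the left. Rows are split into 70 genes below 1 RPKM in every watered column, 45 at 1 RPKM or more when watered and above 0 in dehydrated null, and 18 at 1 RPKM or more when watered and listed at 0 in dehydrated null, each sorted by level in the dehydrated transgenic lines. The dehydrated null column is darker than the 3 beside it, and the upper 70 rows are dark in all 4 watered columns.

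The members fell into groups by their level in watered leaves, a split chosen after the values were seen. The largest held 70 members below 1 RPKM in all 4 watered columns, and 26 of these stayed below 0.1 RPKM in each. Genes below 1 RPKM in all watered columns made up 6.66% of tested genes, and such a gene passed the filter through dehydrated columns alone, so it had to be higher there. These 70 members had medians of 10.4 RPKM in dehydrated A004A, 8.82 RPKM in A005B and 9.96 RPKM in B010C, against 2.47 RPKM in null. Dehydrated null reached 1 RPKM or more in 53 of the 70, so in most of them the gene was detected in dried null leaves too.

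Glyma.04G043100 was the member of this group with the highest mean, at 148 RPKM in dehydrated A004A, 130 RPKM in A005B and 134 RPKM in B010C, against 57.8 RPKM in dehydrated null. Its watered levels were 0.196, 0.0803 and 0.344 RPKM in A004A, A005B and B010C, and 0.439 RPKM in null. The gene was thus near 0 in all watered leaves, and of the dehydrated columns only null stood away from the rest. Glyma.06G046400 had 169, 130 and 103 RPKM in dehydrated A004A, A005B and B010C, against 39.5 RPKM in dehydrated null, and between 0.680 and 0.854 RPKM in the 4 watered columns. Glyma.08G160800 had 119, 112 and 94.8 RPKM in the dehydrated transgenic lines, against 38.5 RPKM in null, and at most 0.112 RPKM when watered. In these 3 genes the lowest dehydrated transgenic line was 2.25, 2.60 and 2.46 times the null value. Their changes on drying in null, by 5.35, 4.45 and 5.15 on the log2 scale, were the largest among members.

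In other members of this group the lines were further apart. Glyma.04G054400 stood at 116 RPKM in dehydrated A004A, 67.1 RPKM in A005B and 172 RPKM in B010C, against 29.5 RPKM in null. Glyma.09G168200 stood at 32.1 RPKM in A004A, 16.8 RPKM in A005B and 8.51 RPKM in B010C, against 2.21 RPKM in null. In both genes the log2 range of the transgenic lines, 1.34 and 1.80, was wider than the gap between the lowest of them and null, 1.16 and 1.57. The widest gap in the group at 5 RPKM or more in every dehydrated transgenic line was that of Glyma.05G095600, at 10.2, 10.6 and 22.1 RPKM in A004A, A005B and B010C, against 1.08 RPKM in null. Glyma.08G158000 followed, at 45.9, 38.6 and 32.7 RPKM against 8.99 RPKM.

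The next group held 45 members with at least 1 RPKM in some watered column and a value above 0 in dehydrated null. Its medians were 24.4 RPKM in dehydrated A004A, 20.9 RPKM in A005B and 21.9 RPKM in B010C, against 5.06 RPKM in null. In watered leaves they were 2.85, 2.60 and 2.44 RPKM in A004A, A005B and B010C, against 2.42 RPKM in null. This group held the member with the highest level of all, Glyma.06G157400, at 454 RPKM in dehydrated A004A, 388 RPKM in A005B and 514 RPKM in B010C, against 178 RPKM in null. When watered, the same gene had 25.4, 30.3 and 34.7 RPKM in A004A, A005B and B010C, against 40.3 RPKM in null, so its order was turned round: null was highest when watered and lowest when dehydrated. Null held the same places in Glyma.16G123300, with 144, 126 and 157 RPKM in dehydrated A004A, A005B and B010C, against 48.2 RPKM in null. Its watered values were 9.72, 11.2 and 10.6 RPKM in the transgenic lines, against 13.6 RPKM in null. With the watered null and A005B columns exchanged, watered null would stand at 30.3 RPKM in Glyma.06G157400 and 11.2 RPKM in Glyma.16G123300. It would then be highest in neither gene.

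Glyma.13G175700 and Glyma.09G131500 differed from these in that null was lowest in watered leaves as well, by a small margin. Glyma.13G175700 had 171, 86.0 and 145 RPKM in dehydrated A004A, A005B and B010C, against 39.9 RPKM in null, and 2.56, 3.21 and 2.11 RPKM when watered, against 1.97 RPKM. Glyma.09G131500 had 147, 102 and 162 RPKM when dehydrated, against 50.4 RPKM in null, and 5.90, 7.46 and 1.63 RPKM when watered, against 1.49 RPKM. With the watered null and A005B columns exchanged, null would be highest when watered in both genes, at 3.21 and 7.46 RPKM. Glyma.13G112000 had the closest transgenic values among the 10 members with the highest levels, at 115, 113 and 113 RPKM when dehydrated, or 113.6 ± 1.13 (SD over 3 lines), against 55.8 RPKM in null.

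**Figure D2:**
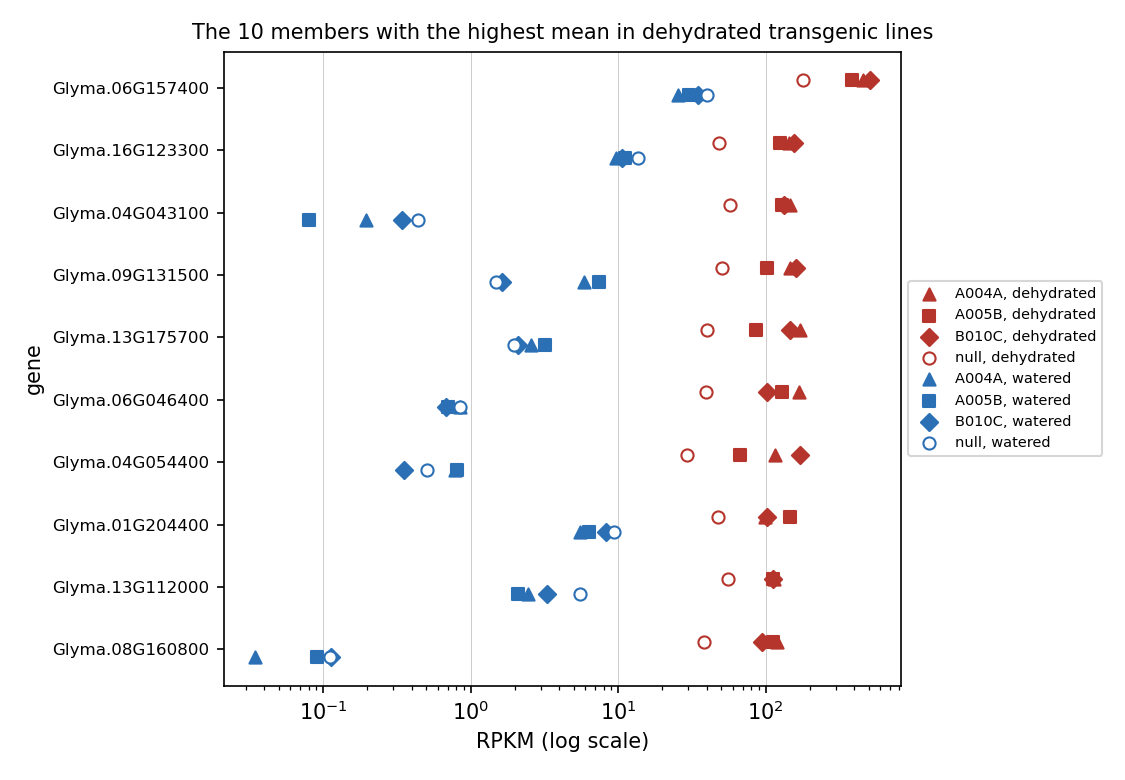
RPKM on a log axis for the 10 members with the highest mean over the dehydrated transgenic lines among those not listed at 0 in dehydrated null, with 1 symbol per line, red when dehydrated and blue when watered, null as open circles. In each gene the dehydrated null value lies left of the 3 dehydrated transgenic values, and to the right of all 4 watered values.

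The last group held 18 members with at least 1 RPKM in some watered column and a listed value of 0 in dehydrated null. A further 7 members listed at 0 in dehydrated null were below 1 RPKM in all watered columns, which makes 25 in all. No ratio of RPKM is given against a listed 0, which can be a failed estimate, and a log2(RPKM + 1) difference from such a value depends on the pseudocount and is no bound. The 25 had low levels, with a mean over dehydrated transgenic lines between 1.41 and 20.4 RPKM, and the transgenic lines varied widely, with a median ratio of 4.11 between the highest and the lowest. In the 108 members above 0 in dehydrated null this ratio was 1.54. Among the 25, 15 genes (60.0%) were listed at 0 in some watered column and at 1 RPKM or more in another, against 6 of the 108 (5.56%) and 0.956% of tested genes.

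Several of the widest gaps lay in such genes. Glyma.10G277000 had 9.81, 5.48 and 29.4 RPKM in dehydrated A004A, A005B and B010C, against a listed 0 in null, and when watered 10.2 RPKM in A005B and a listed 0 in the other 3 lines. Glyma.06G189800 had 8.97, 5.25 and 31.1 RPKM when dehydrated, against a listed 0, and 2.05, 27.0 and 5.21 RPKM when watered, against a listed 0. B010C was the highest dehydrated line in both. A005B was the highest watered line, or null with the watered null and A005B columns exchanged. Glyma.12G155100 ran differently, with 4.20, 16.7 and 17.3 RPKM in dehydrated A004A, A005B and B010C against a listed 0 in null, and 15.3, 17.9 and 13.8 RPKM when watered against 21.9 RPKM.

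The member with the widest gap, 2.80 on the log2 scale, was Glyma.07G077500. It had 32.8, 32.2 and 141 RPKM in dehydrated A004A, A005B and B010C, against 3.77 RPKM in null, and 7.76, 13.5 and 21.2 RPKM when watered, against a listed 0. Its value in watered A004A was shared, to every deposited digit, by 6 genes, 3 of them members. In watered null these 6 genes were listed at 0 in 3 cases and otherwise stood at 10.1, 10.1 and 50.7 RPKM. Repeated values of 1 RPKM or more occurred in 14 of the 25 members listed at 0 in dehydrated null (56.0%), in 16 of the other 108 (14.8%) and in 17.99% of tested genes. Whether few reads underlie these values was not tested.

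Within the transgenic lines, B010C was highest of the 3 in 61 members, A004A in 51 and A005B in 21. The lowest line was A005B in 55 members, B010C in 50 and A004A in 28. The highest and the lowest transgenic value lay within 1.5-fold of each other in 54 members and more than 3-fold apart in 23. For the 108 members above 0 in dehydrated null, the mean of the dehydrated transgenic lines was a median 3.58 times the null value, with quartiles of 2.86 and 5.49.

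Many members sat close to the threshold. The median gap was 1.18 on the log2 scale, and it was 2 or more in 12 members. Just inside it were Glyma.13G112000 (1.0024), Glyma.09G131500 (1.0045) and Glyma.18G205400 (1.0047), and just outside were Glyma.13G112400 (0.99965), Glyma.17G187700 (0.9952) and Glyma.10G262500 (0.9945). These 3 genes just outside were also below 1 RPKM in all watered columns. Glyma.17G187700 had 49.5, 45.5 and 43.3 RPKM in dehydrated A004A, A005B and B010C, against 21.2 RPKM in null, and at most 0.402 RPKM when watered.

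Drying, the next comparison, asked what the same genes did between dehydrated and watered leaves of a line. On the log2(RPKM + 1) scale, the median change of the members was 2.93 in A004A, 2.74 in A005B and 3.05 in B010C, against 1.17 in null. The median over all tested genes lay between -0.30 and -0.06 in the 4 lines. The values in dehydrated leaves entered the rule, so the smaller change in null is fixed in part by the choice of members, and none of this is a test. At least 2-fold higher when dehydrated were 114 members in A004A, 109 in A005B and 119 in B010C, against 73 in null, where the shares among tested genes were 16.7%, 17.7%, 17.6% and 15.8%. At least 2-fold lower were 3, 5 and 0 members in A004A, A005B and B010C, against 15 in null, where the shares among tested genes were 28.3%, 23.7%, 23.4% and 17.9%.

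In limma, fitted to the 6 columns of the transgenic lines with a term for line, 111 members were called higher when dehydrated, against 26.8% of tested genes (Benjamini-Hochberg adjusted p under 0.05). The rule chose members that were high in the same dehydrated columns, so an excess over that share is built in and these counts are a description only. Another 2 members were called lower, against 39.7% of tested genes, and 20 were not called. All 70 members below 1 RPKM in watered leaves were among the 111, as their selection through dehydrated columns would favour. Of the 45 in the next group 37 were called higher, and of the 18 listed at 0 in dehydrated null 4 were. The 2 called lower were Glyma.14G056400 and Glyma.20G197400, named after their values were seen. Glyma.14G056400 had 10.3, 6.61 and 21.9 RPKM in dehydrated A004A, A005B and B010C, against 2.40 RPKM in null, and 22.8, 16.7 and 22.2 RPKM when watered, against 21.3 RPKM, so it was lower after drying in every line and lowest in null.

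The change in null went in the same direction as in the transgenic lines for most members, but not as far. Of the 99 members at least 2-fold higher when dehydrated in each transgenic line, as were 12.4% of tested genes, 73 were also at least 2-fold higher in null. This was 73.7% of them, where 89.7% of all genes at least 2-fold higher in each transgenic line were so in null, a lower share that the rule favours. The contrast depended on the pseudocount, as a pseudocount of 0.1 gave 86.1% of members and 90.7% of all such genes. Median-of-ratios scaling gave 72.3% and 84.3%, and quantile normalization 74.7% and 84.7%. With the watered null and A005B columns exchanged the shares were 65.1% and 90.3%. In the 70 members below 1 RPKM when watered, the median change was 3.24 in A004A, 3.11 in A005B and 3.33 in B010C, against 1.75 in null, and gene by gene null reached a median 54.2% of the mean log2 change of the transgenic lines. In the 45 members of the next group null reached a median 42.0%. The rule sets dehydrated null 1 or more lower, so a smaller change in null was largely fixed in advance, above all where watered levels were near 0. Null was at least 2-fold higher when dehydrated in 49 of the 70 and in 24 of the 45, while the 18 listed at 0 in dehydrated null could not be higher.

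**Figure D3:**
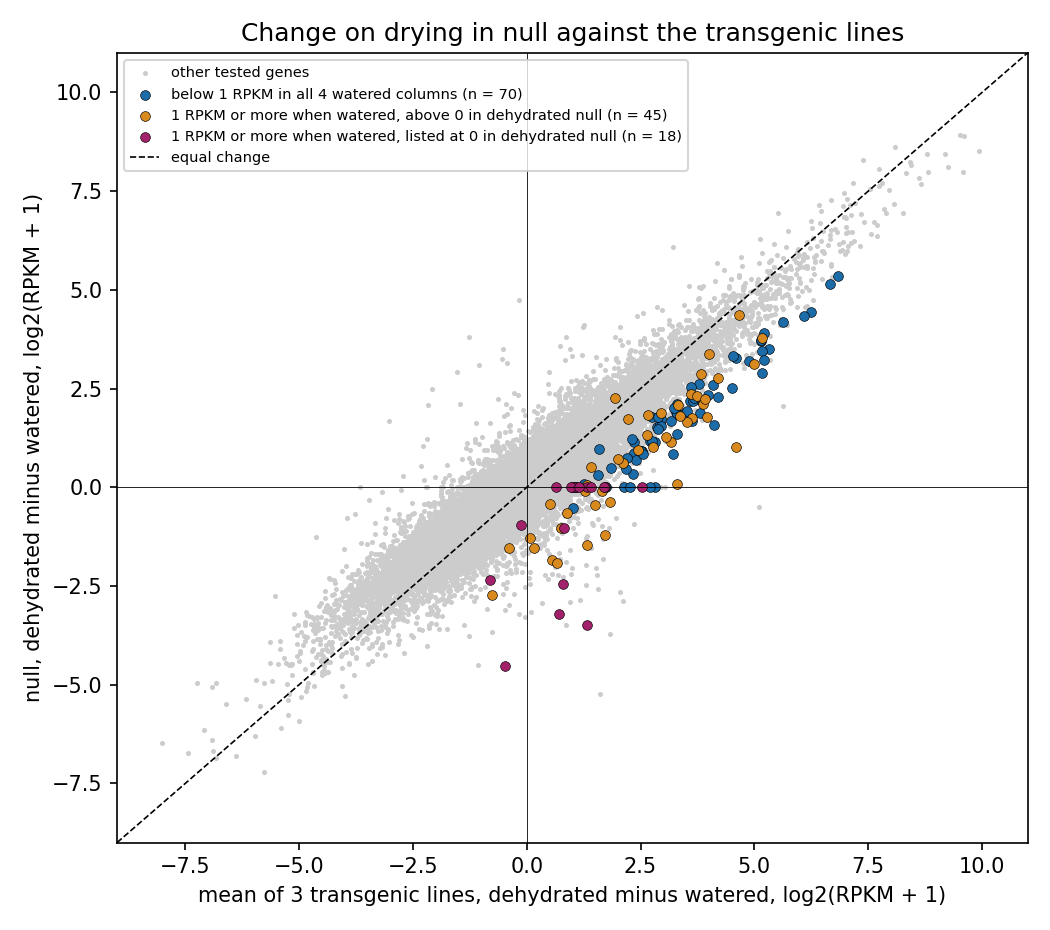
Change on drying, dehydrated minus watered in log2(RPKM + 1), with the mean of the 3 transgenic lines on the x axis and null on the y axis. Each point is 1 gene, with members coloured by group and other tested genes grey. Most members lie below the line of equal change, which their choice favours, and most of the 70 members below 1 RPKM when watered (blue) lie above 0 on both axes.

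The smaller change on drying in null was also seen in genes outside the members. Among the 904 genes at least 8-fold higher when dehydrated in each transgenic line (2.63% of tested genes), 46 were members. These were 34.6% of the members and 5.09% of the 904. With the 46 left out, the change in null minus the mean change of the 3 transgenic lines had a median of -0.38 on the log2 scale. The 904 were chosen by the transgenic columns, dehydrated ones included, with null left out. That choice favours a smaller change in null, so the value is a description and was not tested. The same sum was made for each line in turn, with genes at least 8-fold higher in each of the other 3 lines. Including members, A004A had a median difference of -0.07 over 824 genes, A005B of -0.01 over 813 and B010C of 0.29 over 782, against -0.42 for null. A004A changed least of the 4 lines in 31.3% of its genes, A005B in 21.8% and B010C in 11.9%, against 55.97% for null. With the watered null and A005B columns exchanged these shares were 28.3%, 34.4% and 12.2%, against 45.3% for null. For null the difference was -0.57 after median-of-ratios scaling, -0.54 after quantile normalization, -0.55 with a pseudocount of 0.1 and -0.27 with the watered null and A005B columns exchanged, which put A005B at -0.20. With genes at least 2-fold higher in each of the other 3 lines, the medians were -0.04 for A004A, -0.04 for A005B and 0.15 for B010C, against -0.25 for null. The exchange then gave -0.17 for null and -0.11 for A005B.

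Lists of genes lower in 1 of the other lines alone held smaller shares of genes higher after drying. By the same gap, 135 genes were lower in dehydrated A004A alone, 67 in A005B alone and 37 in B010C alone. All 3 remaining lines were at least 2-fold higher when dehydrated for 17.8%, 17.9% and 21.6% of these genes, against 74.4% of the genes lower in null alone. Genes below 1 RPKM in all watered columns made up 4.44%, 4.48% and 10.8% of the A004A, A005B and B010C lists, against 52.6% of the list for null. The 142 genes higher in dehydrated null alone included 56.3% that were at least 2-fold lower when dehydrated in all 3 transgenic lines. After median-of-ratios scaling the genes higher in null alone numbered 68. The 266 genes higher in dehydrated B010C alone included 67 below 1 RPKM in all watered columns (25.2%), and 78 with the other 3 lines all at least 2-fold higher when dehydrated (29.3%). The lengths of the lists depended on the settings: genes lower in A004A alone numbered 79 after median-of-ratios scaling, 575 with a pseudocount of 0.1 and 941 without A005B. Those lower in A005B alone numbered 170 with that pseudocount and 367 without A004A, and those lower in B010C alone numbered 269 with that pseudocount, 71 without A004A and 60 without A005B. These shares were compared without a test.

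The watered columns were not used by the gap of the rule, and they asked whether the members differed before drying. The mean of the transgenic lines minus null had a median of 0.00 on the log2 scale over members and -0.01 over all tested genes. In limma on the 4 watered columns, which has 2 residual degrees of freedom and assumes that the lone null column varies like the transgenic lines, 0 members and 0 of 34400 genes were called (0%). At an unadjusted p under 0.05 there were 12 members (9.02%), against 6.11% of tested genes. The transgenic lines were higher in 5 of these, against 2.88% of tested genes, and lower in 7, against 3.23%. With so few columns, a lack of calls does not show that the lines were alike. With the watered null and A005B columns exchanged, 3 members, among 12 of all tested genes, were called (Glyma.06G157700, Glyma.10G277000 and Glyma.13G126100), each listed at 0 in 3 watered columns.

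Counted without a test, null lay below all 3 watered transgenic lines in 24 members (18.0%), where 26.6% of tested genes did, and above all 3 in 31 (23.3%), where 28.9% did. It lay 1 or more below the lowest in 2 members, against 0.0959% of tested genes, and 1 or more above the highest in 1 member, against 0.108%. The first 2 were Glyma.07G077500 and Glyma.06G189800 (limma adjusted p = 0.731 for each), both listed at 0 in watered null, with the values given above. The other was Glyma.19G127600, which was listed at 0 in the 3 watered transgenic lines and stood at 1.48 RPKM in watered null (limma adjusted p = 0.176). When dehydrated, Glyma.19G127600 had 27.4, 12.4 and 36.9 RPKM in A004A, A005B and B010C, against 4.08 RPKM in null.

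The watered differences were also read by group. In the 70 members below 1 RPKM when watered, the transgenic mean minus null lay between -0.38 and 0.60 on the log2 scale, with a median of 0.00, and since the split keeps these values below 1 RPKM, a difference of 1 was not possible there. In the 45 members of the next group it lay between -1.31 and 3.82, with a median of -0.06, and in the 18 listed at 0 in dehydrated null between -1.95 and 3.02, with a median of 0.80. A difference of 1 or more in either direction was found in 6 of the 45 and in 8 of the 18. The share of all tested genes with such a difference was not counted. The median of 0.80 rests on the labels of the watered null and A005B columns, and these values were not redone by group with the columns exchanged. Glyma.10G277000 would go from 1.16 to -3.49, while Glyma.02G049900, listed at 0 in both columns, would stay at 1.04.

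**Figure D4:**
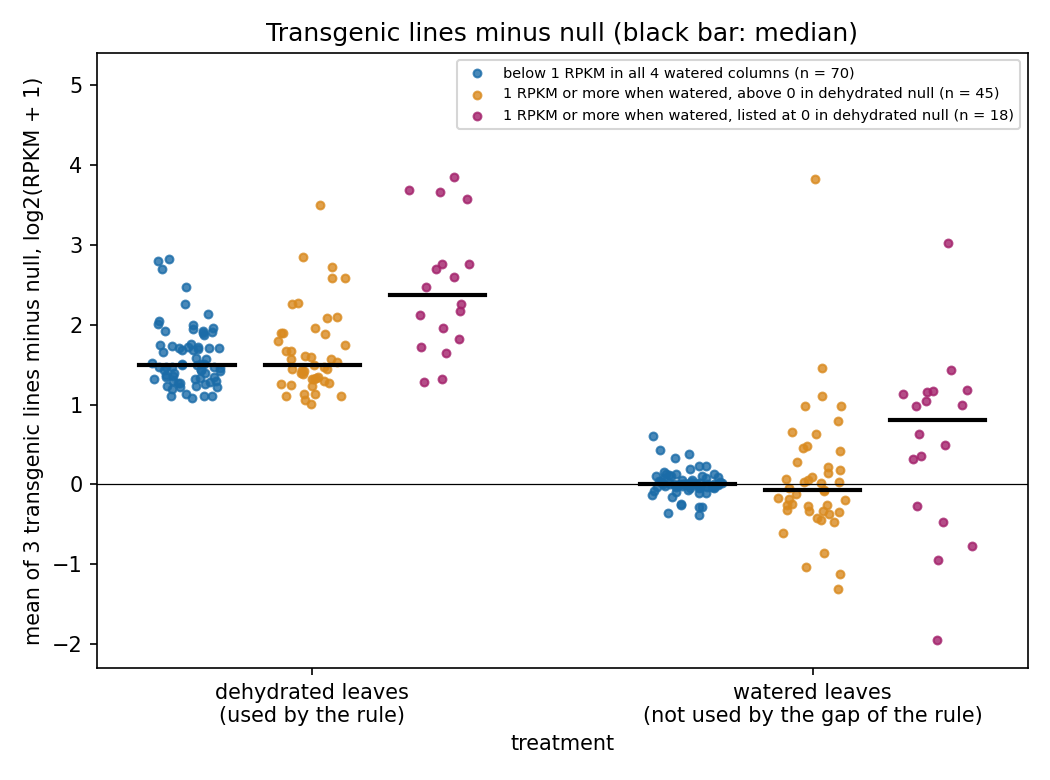
Mean of the 3 transgenic lines minus null in log2(RPKM + 1) for each of the 133 members, in dehydrated leaves on the left and watered leaves on the right, coloured by group, with black bars at the medians. The dehydrated differences lie above 0 by the choice of members, with group medians of 1.49, 1.49 and 2.37, and the watered differences lie around 0 for the first 2 groups, with medians of 0.00 and -0.06.

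Members were found on all 20 numbered chromosomes, as read from the prefix of their identifiers. Chromosome 13 held 17 members (12.8%), where it held 7.25% of tested genes, and chromosome 8 held 12 (9.02%, against 6.96%). In this naming scheme identifiers are numbered along a chromosome. Members with consecutive identifiers formed 3 pairs, which were Glyma.08G158000 with Glyma.08G158100, Glyma.14G099900 with Glyma.14G100000, and Glyma.15G251700 with Glyma.15G251800. Whether reads are shared within a pair is not known.

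The order of the 4 lines was the same within the pair on chromosome 14, and differed among the transgenic lines within the other 2 pairs. Glyma.14G099900 had 17.6, 13.0 and 30.6 RPKM in dehydrated A004A, A005B and B010C, against 5.12 RPKM in null, and Glyma.14G100000 had 42.2, 20.4 and 62.9 RPKM, against 9.05 RPKM. Glyma.15G251700 had 46.6, 38.1 and 39.9 RPKM, against 14.7 RPKM, and Glyma.15G251800 had 13.8, 9.80 and 15.3 RPKM, against 4.31 RPKM. The 192 other tested genes whose identifiers adjoin a member had a median dehydrated difference, transgenic mean minus null, of -0.04 on the log2 scale, against -0.16 over all tested genes. Null lay below all 3 dehydrated transgenic lines in 28.6% of these neighbours, where 15.3% of tested genes did.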

How the data were processed

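Leaf RNA of 16 samples, 2 for each of 4 lines and 2 treatments, was extracted on RNeasy columns and made into Illumina RNA-seq libraries, per the labels' protocols. The authors deposited RPKM values in 1 table with 8 columns, 1 per line and treatment, and the sources used here do not say how the 2 samples of a group were combined. TopHat is a tool listed per the submitters' processing notes. For the counter, the build and the gene models, nothing is given in the sources used here. Columns were tied to groups by name, with 0 left over. Depth is unknown: for genes under 0.3 RPKM throughout, the most frequent ratio of 1 column to another covered 0.459% to 3.94% of genes over 28 pairs, so whole reads were not recovered and no count model was used. The labels do not say that the samples came from separate plants, and p-values measure only the spread between these columns.

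Values were used as log2(RPKM + 1), which understates changes of genes with low values, after a filter of at least 1 RPKM in at least 2 columns. limma 3.58.1 in R 4.3.3 was fitted to all 34400 genes with empirical Bayes moderation and a trend on mean expression, two-sided, and p-values were adjusted by Benjamini-Hochberg and called at 0.05. The planned lists by gene function and marker lists could not be built. The fits were tested on simulated columns. Named genes were the 12 members with the widest gap at 5 RPKM or more, the 10 with the highest level above 0 in null, those 2-fold apart when watered, 3 on each side of the threshold, and 3 with the largest rise and the largest fall in null. Not all of these are described. Other genes were named after their values were seen. The members and lists were chosen with earlier results of these data known. Alternatives were another pseudocount, other filters and scalings, leaving out each transgenic line, another gap and other columns in the fit.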

Additional observations from a re-analysis of the deposited data

Results flagged for a closer look

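In 3 members every transgenic line was higher when dehydrated while null was lower by 1 or more on the log2(RPKM + 1) scale, a difference that was not tested and that the choice of members favours. Glyma.14G023800 had 15.6, 3.17 and 42.4 RPKM in dehydrated A004A, A005B and B010C, against a listed 0 in null, and 7.76, 0 and 21.1 RPKM when watered, against 10.1 RPKM, a change in null of -3.48 on that scale, which depends on the pseudocount because of the listed 0. Glyma.20G012800 changed by -1.46 in null, with 2.85, 7.20 and 3.77 RPKM in the dehydrated transgenic lines against 0.589 RPKM. Its watered values were 1.61, 0 and 2.74 RPKM, against 3.36 RPKM in null. Glyma.20G183800 changed by -1.20 in null, with 11.4, 5.73 and 7.99 RPKM against 0.515 RPKM. Its watered values were 6.34, 0 and 1.88 RPKM, against 2.48 RPKM in null. All 3 genes were listed at 0 in watered A005B. With the watered null and A005B columns exchanged, null was therefore lower when dehydrated in none of them. The share of tested genes with this pattern was not counted.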

How the results depend on the processing

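No paired analysis was possible because the columns carry no replicate numbers, if pairing by replicate is meant; the drying fit did set each line's dehydrated column against its own watered column. The size of the list depended on the settings. There were 695 members at a gap of 0.5 and 12 at a gap of 2, 410 with a pseudocount of 0.1, 70 when a mean RPKM of 5 was required, and 223 with median-of-ratios scaling. Quantile normalization gave 184, of which 131 were among the members reported. Leaving out a line can only add members, and gave 180 without A004A, 240 without A005B and 606 without B010C. The other counts are over the reported members. Over the 70 of them with a mean RPKM of 5 or more, members at least 2-fold higher when dehydrated were 65 in A004A, 61 in A005B and 64 in B010C, against 54 in null, those lower were 3 in A005B and 8 in null, 60 were called higher by limma and 1 lower, and 32 were below 1 RPKM when watered. Members called lower by limma numbered 1 to 3 over the settings, 1 of them with no filter and after median-of-ratios scaling. At least 2-fold lower were 5 members in A004A and 1 in B010C with a pseudocount of 0.1, and 1 in A004A after median-of-ratios scaling. Null lay 2-fold below the watered transgenic lines in 6 members with a pseudocount of 0.1, in 4 without A005B and in 6 without B010C, and 2-fold above them in 2 without A004A or B010C. With the watered null and A005B columns exchanged, an alternative chosen after seeing the data, these counts were 4 and 5, members 2-fold lower in A005B were 3, and limma called 3 when watered, of 12 among all genes. The exchange also gave 119 members called higher on drying, 116 at least 2-fold higher in A005B, and 71 higher and 20 lower in null. With no filter limma called 1, Glyma.19G127600 (adjusted p = 0.00925), of 118 among all genes. The cause of these shifts was not tested. The number of reads is unknown, and the lack of replicate values limits every comparison.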
